A study of Homo sapiens with 25 samples.

Results

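The genes described here encode the heat shock proteins and the J-domain co-chaperones. They were chosen by symbol: protein-coding genes named HSPA, HSPB, HSPD, HSPE, HSPH or HSP90 with a letter or number, or DNAJA, DNAJB or DNAJC with a number. This gave 71 of the 58302 genes in the files, of which 42 are J-domain genes, 15 belong to the HSP70 family (HSPH1 included), 7 are small heat shock proteins, 3 belong to the HSP90 family, 2 encode the mitochondrial HSP60 and HSP10, and 2 carry the prefix without being chaperones of these families (HSPBP1 and HSPBAP1). By textbook localisation 46 were placed in the cytosol or nucleus, 13 in the endoplasmic reticulum (ER), 8 in mitochondria, and 4 (DNAJC4, DNAJC22, DNAJC25 and DNAJC28) were left unassigned. Another 80 genes matched the symbol pattern but had another biotype and were left out.

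Poly(A) RNA was sequenced from hiF-T cells, a wild-type human line derived from BJ skin fibroblasts that carries an inducible hTERT. In 20 untreated libraries, cells were left ungated or sorted into low, midlow, midhigh and high gates of dye accumulation, with 4 biological replicates in each of these 5 groups. In a second set of 5 libraries, cells were exposed to LSD1 inhibition (replicates 1 and 2) or DOT1L inhibition (replicate 1), with DMSO (replicate 1) and no drug (replicate 2) as controls. By the series design, cells were sorted for their proliferation status. Which dye level marks slowly dividing cells is not stated, and neither are the compounds, their doses or the exposure times. All libraries come from 1 line, so the replicates do not sample different donors.

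HSP70 proteins bind exposed hydrophobic stretches of unfolded proteins in a cycle driven by ATP. J-domain proteins bring clients to them and stimulate ATP hydrolysis, and nucleotide exchange factors such as HSPH1 and HSPA4 release the client. HSP90 completes the folding of many kinases and receptors, small heat shock proteins hold unfolded clients, and HSPD1 with HSPE1 forms the folding chamber of mitochondria. The heat shock factor HSF1 induces many cytosolic members through heat shock elements, and the unfolded protein response induces ER members.

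Promoter sequences are shown because these genes are known for the response elements near their start of transcription. RefSeq windows (GRCh38.p14) running from 250 bases before to 50 after an annotated start were available for 65 of the 71 members, in 86 windows since some genes have several starts. Capitals mark matches to paired heat shock units (GAANNTTC or TTCNNGAA, both strands, which may overlap) and to the ER stress response element (CCAAT and CCACG with 9 bases of any kind between, both strands). HSPA1A, DNAJB1 and HSPB6 were higher in high dye than in low dye cells, HSP90AA1 is the most counted member, and HSPA5 and HSP90B1 are the main ER chaperones. The windows lie at chr6:31815293-31815592 (HSPA1A, plus strand), chr19:14518348-14518647 (DNAJB1, minus strand), chr19:35756980-35757279 (HSPB6, minus strand), chr14:102086995-102087294 (HSP90AA1, minus strand), chr9:125241294-125241593 (HSPA5, minus strand) and chr12:103930160-103930459 (HSP90B1, plus strand). Each is printed along its own gene's strand. Where a gene has several windows, the one with most matches is printed. Windows not printed hold 1 and 0 matches for DNAJB1 and 0 for HSP90AA1.
HSPA1A: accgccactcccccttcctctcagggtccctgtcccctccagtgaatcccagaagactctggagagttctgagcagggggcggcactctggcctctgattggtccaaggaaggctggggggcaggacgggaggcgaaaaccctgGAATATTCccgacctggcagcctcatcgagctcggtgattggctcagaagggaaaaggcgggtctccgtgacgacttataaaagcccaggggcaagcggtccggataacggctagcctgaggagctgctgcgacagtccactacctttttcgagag
DNAJB1: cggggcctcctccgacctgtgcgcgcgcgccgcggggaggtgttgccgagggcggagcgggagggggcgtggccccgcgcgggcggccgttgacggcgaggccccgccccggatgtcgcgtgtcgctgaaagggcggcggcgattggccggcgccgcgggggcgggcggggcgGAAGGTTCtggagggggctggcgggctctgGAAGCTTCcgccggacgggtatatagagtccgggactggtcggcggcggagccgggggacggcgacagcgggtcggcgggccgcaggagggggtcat
HSPB6: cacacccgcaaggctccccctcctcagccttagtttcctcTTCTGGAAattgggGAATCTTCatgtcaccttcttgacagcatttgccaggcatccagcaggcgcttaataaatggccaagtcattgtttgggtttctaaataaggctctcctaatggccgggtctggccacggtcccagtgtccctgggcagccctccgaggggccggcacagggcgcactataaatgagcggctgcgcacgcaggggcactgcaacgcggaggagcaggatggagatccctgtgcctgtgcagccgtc
HSP90AA1: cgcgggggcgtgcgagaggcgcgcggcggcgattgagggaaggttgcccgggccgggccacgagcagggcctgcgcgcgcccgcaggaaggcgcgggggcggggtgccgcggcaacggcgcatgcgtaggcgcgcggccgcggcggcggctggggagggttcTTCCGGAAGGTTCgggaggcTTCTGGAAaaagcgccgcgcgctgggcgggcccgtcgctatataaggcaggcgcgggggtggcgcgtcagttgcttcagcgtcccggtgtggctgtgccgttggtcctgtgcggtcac
HSPA5: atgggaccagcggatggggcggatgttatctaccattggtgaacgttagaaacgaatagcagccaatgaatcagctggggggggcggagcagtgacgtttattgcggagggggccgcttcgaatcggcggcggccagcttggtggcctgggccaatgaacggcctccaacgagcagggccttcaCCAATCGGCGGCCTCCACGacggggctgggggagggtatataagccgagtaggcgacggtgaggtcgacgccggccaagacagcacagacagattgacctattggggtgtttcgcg
HSP90B1: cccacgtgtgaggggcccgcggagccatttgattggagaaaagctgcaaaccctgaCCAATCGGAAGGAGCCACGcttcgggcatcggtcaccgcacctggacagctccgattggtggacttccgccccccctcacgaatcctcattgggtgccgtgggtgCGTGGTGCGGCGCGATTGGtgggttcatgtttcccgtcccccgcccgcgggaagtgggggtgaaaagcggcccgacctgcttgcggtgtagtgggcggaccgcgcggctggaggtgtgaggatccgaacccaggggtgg

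A paired heat shock unit occurred in 23 of the 86 member windows (26.7%), against 13.5% of all 35116 windows of the same length. The share was 34.5% of the 58 cytosolic windows, 27.3% of the 11 mitochondrial windows, and 0% of the 13 ER windows. A run of 3 units (GAA, TTC and GAA with 2 bases of any kind between neighbours, both strands, which contains the paired units) occurred in 7 member windows (8.14%) and in 0.49% of all windows. Those windows belong to DNAJA1, DNAJB6, HSP90AA1, HSP90AB1, HSPA6, HSPA8 and HSPD1. The ER stress response element occurred in 2 of the 13 ER windows, those of HSPA5 and HSP90B1, and in 0.0769% of all windows. A match is a description of these letters and says nothing about binding in these cells.

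The files held 15015039 to 20030093 gene counts per library, and members made up 1.24% (high dye replicate 1) to 1.64% (low dye replicate 4) of them. For a gene with no count, 3 counts is the upper limit, which is 0.15 to 0.2 counts per 1000000 (CPM) and covers counting error alone. Fibroblast markers summed to 6340 to 11868 CPM per library, and all 10 were detected. The immune markers summed to 0.147 to 2.06 CPM and the muscle markers to 0.0573 to 0.72 CPM, with MYOG at 0 in all libraries. Melanocyte markers summed to 0.294 to 3.16 CPM and pluripotency markers to 1.34 to 3.58 CPM. Keratinocyte and epithelial markers summed to 126 to 358 CPM and endothelial markers to 38.4 to 104 CPM, with 3 of 6 and 3 of 5 of these genes under 1 CPM in all libraries.

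A few chaperones carried most of the signal. In CPM scaled by the trimmed mean of M values (TMM), HSP90AA1 took 19.1%, HSPA8 17%, HSP90AB1 11% and HSP90B1 10.7% of the member total over the 20 sort libraries, 57.8% together. Levels were compared between genes per kilobase of transcript. In ungated cells HSPA8, the constitutive HSP70, stood first at 1072 ± 115 CPM per kb (SD, n = 4, as for the next values), followed by the stress-responsive HSP90AA1 at 821 ± 95.4 and the constitutive HSP90AB1 at 626 ± 33.5. The ER forms HSP90B1 (GRP94) and HSPA5 (BiP) stood at 580 ± 51.5 and 403 ± 39.7 CPM per kb. HSP90AB1 and HSP90B1 were within their spread of each other. HSPD1, the mitochondrial HSP60, stood at 203 ± 24.1 CPM per kb, and the small heat shock protein HSPB1 (HSP27) at 173 ± 39.8, again within their spread. HSPE1, the partner of HSPD1, stood at 26.6 ± 1.39 CPM per kb. However, 23.9% of the exon bases of HSPE1 overlap other genes, among them HSPD1 on the other strand and the readthrough gene HSPE1-MOB4. Reads in such bases may be counted for neither gene. DNAJA1 (144 ± 8.99 CPM per kb) was the highest J-domain gene, followed by DNAJB6 at 83.3 ± 6.83 CPM per kb.

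**Figure D1:**
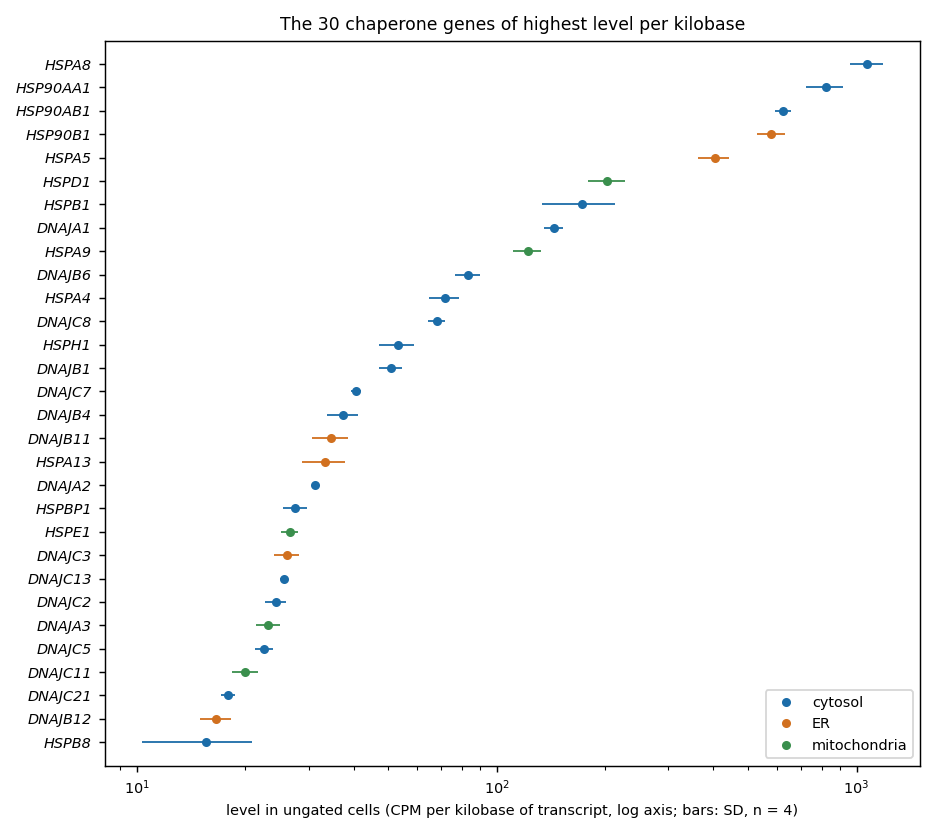
Level of the 30 members with the highest level in ungated cells, in CPM per kilobase of transcript on a log axis, with points for the mean of 4 libraries, bars for the SD and colours for the compartment. HSPA8 leads at 1072 CPM per kb and HSPB8 closes the list at 15.6 CPM per kb.

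The heat-inducible HSP70 genes were low beside these. HSPA1B and HSPA1A, near-identical neighbours on chromosome 6 whose reads may be split between them or lost in counting, stood at 11 ± 2.37 and 6.9 ± 0.824 CPM per kb in ungated cells. HSPA6, an HSP70 gene known for expression under strong stress, reached at most 0.571 CPM (midhigh dye replicate 4) and had no count in 3 of the 25 libraries. It was 1 of 8 members that did not pass the filter on low counts. The others were DNAJB7, DNAJB8, DNAJB13, HSPA12B, HSPB2, HSPB3 and HSPB9, none above 0.642 CPM in any library. The remaining 63 members were tested: 38 cytosolic, all 13 of the ER, all 8 mitochondrial and the 4 unassigned.

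High dye cells were set against low dye cells to ask which chaperone genes go with the sort. HSPA1A, 7 J-domain genes and HSPB6, which was 1 of 4 small heat shock proteins tested, were higher in high dye cells, while DNAJC8, DNAJC9, HSPA12A and HSPA14 were lower. The HSP90 genes and HSPA8 had log2 fold changes from -0.38 (HSP90AA1) to -0.14 (HSPA8) and were called lower only with the replicate number as a block. By edgeR's quasi-likelihood F test with Benjamini-Hochberg adjustment over 14592 genes (called at an adjusted p under 0.05), 9 members rose and 4 fell of 63 tested, or 20.6%. The background was 17.8% of all genes tested, with 9.39% higher and 8.37% lower, so the members' share was near it. The median log2 fold change was 0.04 over the members and 0.01 over all genes. In the cytosol 5 rose and 4 fell of 38, in the ER 2 rose and 0 fell of 13, in mitochondria 1 rose and 0 fell of 8, and DNAJC4 rose among the 4 unassigned.

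Replicate numbers went together across gates, and with the replicate number as a block 16 members rose and 12 fell (44.4%, against a background of 37.2% of all genes, 19.8% higher and 17.4% lower). All 13 members called without the block were called with it. DESeq2 without the block called 11 higher and 4 lower, which are those 13 with DNAJB9 and HSPB7 added. The blocked fit called 11 higher and 8 lower of 38 cytosolic members, 3 higher and 1 lower of 13 in the ER, and 1 higher and 2 lower of 8 in mitochondria. It called all 3 HSP90 genes and both HSPD1 and HSPE1 lower. The 35 members called in neither fit had log2 fold changes from -0.16 (DNAJB11) to 0.84 (DNAJC12).

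**Figure D2:**
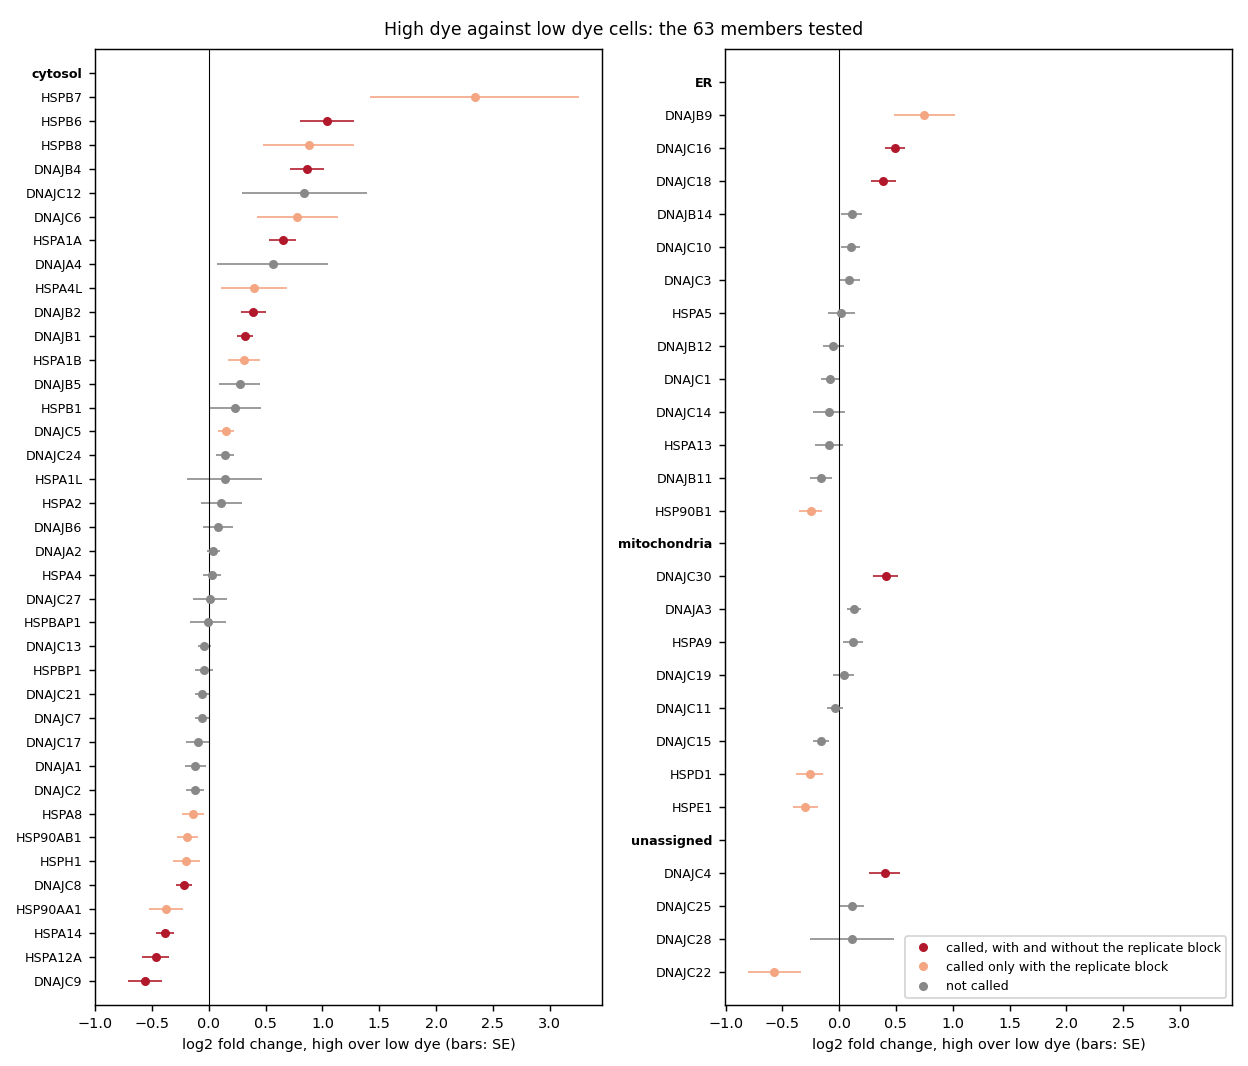
Log2 fold change of high over low dye for the 63 members tested, by compartment, with bars for the standard error, dark red for members called with and without the replicate block and light red for those called with the block only. HSPB7, HSPB6, HSPB8 and DNAJB4 lie farthest to the right, and DNAJC22, DNAJC9 and HSPA12A farthest to the left.

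Among the small heat shock proteins, HSPB6 (HSP20, best known from smooth muscle and heart) had 19.5, 15.9, 26.4 and 21.9 CPM in high dye replicates 1 to 4, against 8.08, 8.85, 12.9 and 10.9 CPM in low dye replicates 1 to 4. Every high dye library lay above every low dye library. Its log2 fold change was 1.04 ± 0.24 (SE), with an edgeR adjusted p of 0.00693. An antisense gene, AC002398.2, shares 38.2% of its exon bases, and without strand its reads cannot be told apart from those of HSPB6. HSPB8, which works with BAG3 in the autophagy of misfolded proteins, had 41.3, 29.4, 77.4 and 46.9 CPM in high dye cells, against 18.6, 13.5, 37.7 and 36.4 CPM in low dye cells. It was higher in high dye in all 4 replicates although the groups overlapped. It was called only with the block (log2 0.91 ± 0.12, edgeR adjusted p = 1.1e-05, against 0.131 without it).

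HSPB7, the cardiovascular small heat shock protein, had 1.52, 0.108, 3.06 and 0.976 CPM in high dye cells, against 0.376, 0.0509, 0.512 and 0.184 CPM in low dye cells. These levels lie at or near the counting limit in several libraries, and edgeR called the gene only with the block (adjusted p = 0.00097, against 0.0834 without it). DESeq2 called it without the block (adjusted p = 0.0451). HSPB1 had 135, 136, 246 and 230 CPM in high dye cells, against 131, 132, 198 and 178 CPM in low dye cells. It was higher in high dye in 4 of 4 pairs but was not called in either fit (log2 0.23 ± 0.23, adjusted p = 0.529, and 0.132 with the block).

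Of the HSP70 family, HSPA1A had 16.5, 19.3, 21.2 and 22.3 CPM in high dye cells, against 12.4, 12.9, 11.4 and 13.7 CPM in low dye cells. The groups did not overlap, and the log2 fold change was 0.65 ± 0.12 (edgeR adjusted p = 0.00188). HSPA1B had 24.2, 33.3, 26.9 and 32.8 CPM in high dye cells, against 22.2, 23.8, 23.9 and 24.9 CPM in low dye cells, and was called only with the block (log2 0.30 ± 0.08, edgeR adjusted p = 0.00513, against 0.129 without it). The 2 genes are near-identical in sequence, so how a change is divided between them is uncertain. AL671762.1 on the same strand also shares 36.5% of the exon bases of HSPA1B.

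HSPA8 had 2036, 2539, 2305 and 2644 CPM in high dye cells, against 2259, 2777, 2687 and 2772 CPM in low dye cells. The groups overlapped, every high dye library lay below the low dye library of its number, and the gene was called lower only with the block (log2 -0.14 ± 0.05, edgeR adjusted p = 0.0195, against 0.36 without it). HSPA14, an HSP70-like partner of DNAJC2 at the ribosome, had 14.4, 17.1, 16.7 and 15.5 CPM in high dye cells, against 21, 19.9, 20.4 and 22 CPM in low dye cells. The groups did not overlap (log2 -0.39 ± 0.08, edgeR adjusted p = 0.00455). Other annotated genes share 17.4% of its exon bases, a same-strand entry also named HSPA14 and CDNF on the opposite strand. HSPA12A, a divergent member, fell to 20.8 ± 3.07 CPM in high dye cells, against 28.8 ± 3.7 CPM in low dye cells (SD, n = 4 each; log2 -0.47 ± 0.12, edgeR adjusted p = 0.0143). The exchange factor HSPH1 was called lower only with the block (log2 -0.21 ± 0.05, edgeR adjusted p = 0.00269, against 0.247 without it). Its relative HSPA4 was not called in either fit (log2 0.03 ± 0.08).

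HSP90AA1 had 1837, 2659, 2259 and 3312 CPM in high dye cells, against 2680, 3528, 3435 and 3458 CPM in low dye cells. High dye replicate 4 lay beside the low dye libraries, and low dye replicate 1 lay below the other low dye libraries. The gene was lower in high dye in all 4 pairs. It was called only with the block (log2 -0.40 ± 0.07, edgeR adjusted p = 0.00011, against 0.0907 without it). HSP90AB1 averaged 1528 ± 173 CPM in high dye cells and 1744 ± 134 CPM in low dye cells (SD, n = 4 each), and was also called only with the block (log2 -0.19 ± 0.05, edgeR adjusted p = 0.00558, against 0.128 without it).

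Cytosolic J-domain genes that rose were DNAJB4, DNAJB1 and DNAJB2, all of class B. DNAJB4 had 157, 113, 173 and 125 CPM in high dye cells, against 74.1, 73.3, 81.1 and 84.1 CPM in low dye cells. The lowest high dye library lay above the highest low dye library (log2 0.86 ± 0.15, edgeR adjusted p = 0.00185). DNAJB1 (HSP40), a heat-inducible partner of HSP70, had 117, 118, 113 and 132 CPM in high dye cells, against 92.3, 92.9, 94.5 and 104 CPM in low dye cells. These groups did not overlap either, with a smaller change (log2 0.32 ± 0.07, edgeR adjusted p = 0.0053). DNAJB2, which delivers clients to the proteasome, averaged 43.3 ± 6.57 CPM in high dye cells and 33 ± 5.17 CPM in low dye cells (SD, n = 4 each; log2 0.39 ± 0.11, edgeR adjusted p = 0.0234). The class A gene DNAJA1 was not called in either fit (log2 -0.12 ± 0.09, adjusted p = 0.398, and 0.0656 with the block).

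DNAJC9, a chaperone of histones H3 and H4, had 28.7, 37.4, 26.8 and 49.7 CPM in high dye cells, against 49.1, 51, 56.6 and 53.4 CPM in low dye cells. High dye replicate 4 overlapped the low dye range, and the other 3 lay below it (log2 -0.56 ± 0.15, edgeR adjusted p = 0.0149). Exons of other genes, among them an antisense gene, cover 29.1% of its exon bases. DNAJC8, known from the spliceosome, had 103, 114, 105 and 118 CPM in high dye cells, against 124, 134, 133 and 121 CPM in low dye cells, without overlap (log2 -0.22 ± 0.07, edgeR adjusted p = 0.0281). DNAJC6 (auxilin, which uncoats clathrin vesicles) had 18.6, 14.5, 29.9 and 29.7 CPM in high dye cells, against 10, 8.55, 15.5 and 19.9 CPM in low dye cells. It was called only with the block (log2 0.79 ± 0.09, edgeR adjusted p = 1.3e-06, against 0.141 without it).

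In the ER, 2 of 13 members were called without the block (15.4%, against a background of 17.8%), the J-domain genes DNAJC16 and DNAJC18. With the block the share was 30.8%, against a background of 37.2%. HSPA5 had 1333, 1525, 1457 and 1787 CPM in high dye cells, against 1344, 1502, 1410 and 1746 CPM in low dye cells. The replicates spread more than the gates (log2 0.02 ± 0.12, edgeR adjusted p = 0.918, and 0.747 with the block). HSP90B1 had 1160, 1506, 1318 and 1708 CPM in high dye cells, against 1560, 1783, 1684 and 1760 CPM in low dye cells. It was lower in high dye in all 4 pairs and was called only with the block (log2 -0.26 ± 0.07, edgeR adjusted p = 0.00339, against 0.0864 without it).

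DNAJC16, an ER membrane J-domain protein, had 50.4, 43.5, 42.5 and 38.2 CPM in high dye cells, against 32.8, 30.9, 29.8 and 30.4 CPM in low dye cells. The groups did not overlap (log2 0.49 ± 0.09, edgeR adjusted p = 0.00224). DNAJC18 rose to 19 ± 2.12 CPM in high dye cells, against 14.5 ± 1.81 CPM in low dye cells (SD, n = 4 each; log2 0.39 ± 0.11, edgeR adjusted p = 0.0227). DNAJB9 (ERdj4), an unfolded protein response gene that restrains the sensor IRE1, had 34.6, 24.4, 51.6 and 28.1 CPM in high dye cells, against 17, 18.3, 26.2 and 21 CPM in low dye cells. It was higher in 4 of 4 pairs. By edgeR it was called only with the block (log2 0.71 ± 0.14, adjusted p = 0.00032, against 0.0658 without it), and DESeq2 called it without the block (adjusted p = 0.0351). The BiP partners DNAJB11 (log2 -0.16 ± 0.10) and DNAJC3 (log2 0.09 ± 0.09) were not called in either fit.

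In mitochondria, DNAJC30 had 10.4, 11.6, 12.7 and 12.1 CPM in high dye cells, against 7.39, 9.36, 10.4 and 7.96 CPM in low dye cells. Low dye replicate 3 lay at the level of high dye replicate 1, and the other low dye libraries lay below all high dye ones (log2 0.41 ± 0.11, edgeR adjusted p = 0.0165). HSPD1 had 378, 461, 409 and 555 CPM in high dye cells, against 483, 499, 567 and 615 CPM in low dye cells, lower in each pair. HSPD1 was called only with the block (log2 -0.27 ± 0.05, edgeR adjusted p = 0.00059, against 0.154 without it). The same held for HSPE1 (log2 -0.31 ± 0.08, edgeR adjusted p = 0.00461, against 0.0754 without it). HSPA9 (mortalin, the mitochondrial HSP70) and its partner DNAJA3 were not called in either fit (log2 0.12 ± 0.09 and 0.13 ± 0.06).

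The summed level of all members was 12334 to 16282 CPM in high dye cells and 14025 to 16467 CPM in low dye cells, so the sums overlapped. Every high dye library lay below the low dye library of its number, in this sum and in those of the cytosol, the ER and mitochondria. The cytosolic sum averaged 9080 ± 1215 CPM in high dye cells and 10207 ± 805 CPM in low dye cells (SD, n = 4 each). In these bulk libraries, fewer cells expressing a gene and less RNA per cell cannot be told apart. Of 18 proliferation genes, 14 fell in high dye cells (median log2 -0.84), led by MCM2 at log2 -1.11 ± 0.22. Of 10 fibroblast markers, 3 rose and 0 fell. LUM had the largest change (log2 2.02 ± 0.60) at a low level, 4.81 against 1.17 CPM. With the block, 7 markers were higher and 1 lower. The background was 9.39% higher and 8.37% lower without the block, and 19.8% and 17.4% with it. The fibroblast marker sum was 8212 to 10317 CPM in high dye cells and 6340 to 8655 CPM in low dye cells. The part of these differences in the chaperone results was not tested.

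In fits without the replicate block, some calls depended on single libraries. The blocked fit, which also called all 13 of these members, was not repeated with libraries left out. HSPB6, DNAJC16, DNAJB1, DNAJB4, HSPA14 and HSPA1A were called whichever of the 8 libraries was left out, with adjusted p at most 0.0333. The calls of DNAJC9 and HSPA12A ended without high dye replicate 1 or without high dye replicate 3. DNAJC30 lost its call without low dye replicate 1, high dye replicate 3 or low dye replicate 4. DNAJC8 lost it without high dye replicates 1 or 3 or low dye replicates 2 or 3, and DNAJC18 without high dye replicates 1 or 2 or low dye replicates 3 or 4. DNAJB2 lost it without low dye replicates 1, 2 or 3 or high dye replicates 3 or 4. DNAJC4, with a mean of 8.6 ± 1.26 CPM in high dye cells against 6.49 ± 0.643 CPM in low dye cells (adjusted p = 0.0499), kept its call in 2 of the 8 cases, those that left out low dye replicate 3 or high dye replicate 4. The member count was 8 without high dye replicate 1, 7 without high dye replicate 3, and 19 (8 higher, 11 lower) without high dye replicate 4.

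Related gene lists gave context. At most 4 called genes per list are named, those of largest absolute log2 fold change, so the names do not reflect the balance of directions. Of 28 genes of the HSF1 axis and the cytosolic co-chaperones, 4 rose and 3 fell in high dye cells, with a median log2 fold change of 0.03. The HSP90 co-chaperones FKBP5 (log2 -0.83 ± 0.21) and PTGES3 (log2 -0.33 ± 0.09) and the ubiquitin ligase adaptor CACYBP (log2 -0.49 ± 0.15) fell, and the kinase-specific co-chaperone CDC37 rose (log2 0.33 ± 0.10). Of 16 TRiC chaperonin and prefoldin genes, 1 rose (PFDN5) and 1 fell (CCT5), and with the block 1 was higher and 7 lower. Of 33 ER unfolded protein response and folding genes, 4 rose and 3 fell. The sensor gene ERN1 rose (log2 0.82 ± 0.21), as did WFS1 (0.78 ± 0.16) and the BiP exchange factor SIL1 (0.44 ± 0.14), and the disulfide isomerase PDIA4 fell (-0.43 ± 0.12). Of 18 integrated stress response genes, 6 rose and 0 fell (median log2 0.72), with 15 higher under the block. ATF3 was the furthest of them, at 24.4 ± 19 CPM in high dye cells and 4.63 ± 2.74 CPM in low dye cells (SD, n = 4 each; log2 2.41 ± 0.65, edgeR adjusted p = 0.0165). Of 24 genes of mitochondrial import and folding, 0 rose and 1 fell (TOMM22), and of 17 immediate early genes 1 rose (JUNB). With the block, the HSF1 axis list had 7 higher and 6 lower, and the ER list 9 higher and 6 lower. The mitochondrial list then had 1 higher and 6 lower, and the immediate early genes 6 higher and 3 lower. The background in this comparison was the 17.8% given above, and 37.2% with the block (19.8% higher, 17.4% lower).

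Over the 4 gates, most changes ran in 1 direction from low to high dye. In a linear trend with the gates in equal steps, an assumption since no dye values are given, 12 members rose and 8 fell (31.7%), against a background of 26.3% of 14419 genes (14% higher, 12.3% lower). With the replicate block 19 rose and 16 fell, against a background of 43.8% (23.1% higher, 20.7% lower). All 13 members called between high and low dye were also called in the trend, which uses the same libraries. HSPB6 rose by log2 0.38 ± 0.07 per gate (edgeR adjusted p = 0.00096), with means of 10.2, 12.2, 19.2 and 20.9 CPM from low to high dye. DNAJB4 rose by log2 0.30 ± 0.05 per gate (edgeR adjusted p = 0.00068) and HSPA1A by 0.22 ± 0.04 (edgeR adjusted p = 0.00119). Group means of HSPA1A in the order low, midlow, midhigh, high were 12.6 ± 0.976, 16.5 ± 1.28, 20.1 ± 2.96 and 19.8 ± 2.53 CPM (SD, n = 4 each), so its 2 upper gates did not differ beyond their spread.

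Members called in the trend but not between the outer gates were HSPB7, DNAJB9 and HSPA1B, which rose, and HSP90AA1, HSPE1, HSP90B1 and DNAJC22, which fell. HSP90AA1 fell by log2 0.14 ± 0.05 per gate (edgeR adjusted p = 0.0381), HSP90B1 by 0.09 ± 0.03 (adjusted p = 0.0321) and HSPE1 by 0.11 ± 0.04 (adjusted p = 0.0319). DNAJB9 rose by log2 0.26 ± 0.09 per gate (edgeR adjusted p = 0.0332). Without the block, each of these calls ended when single libraries were left out. The blocked trend, which called all 20 members called without it, was not repeated with libraries left out. High dye replicates 1 and 3 and low dye replicate 4 each ended HSP90AA1, HSPE1, DNAJB9, HSP90B1 and HSPB7. Low dye replicate 2 also ended HSP90AA1, DNAJB9, HSP90B1 and HSPB7, low dye replicate 3 HSP90AA1, and low dye replicate 1 DNAJB9. HSPA1B kept its call in 6, DNAJC22 in 7 and DNAJC4 in 11 of the 16 cases. DNAJC4 lost it without high dye replicates 1, 2 or 3 or low dye replicates 1 or 4. DNAJC22 lost it without replicates 1 or 3 of high, midhigh or midlow dye, low dye replicates 2 or 3, or midlow dye replicate 2. HSPA1B kept it without midhigh dye replicates 1 or 2, midlow dye replicates 2 or 4, or high dye replicates 1 or 3. The count of members was 13 without high dye replicate 1, and also 13 when replicate 3 of high dye was the one left out.

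**Figure D3:**
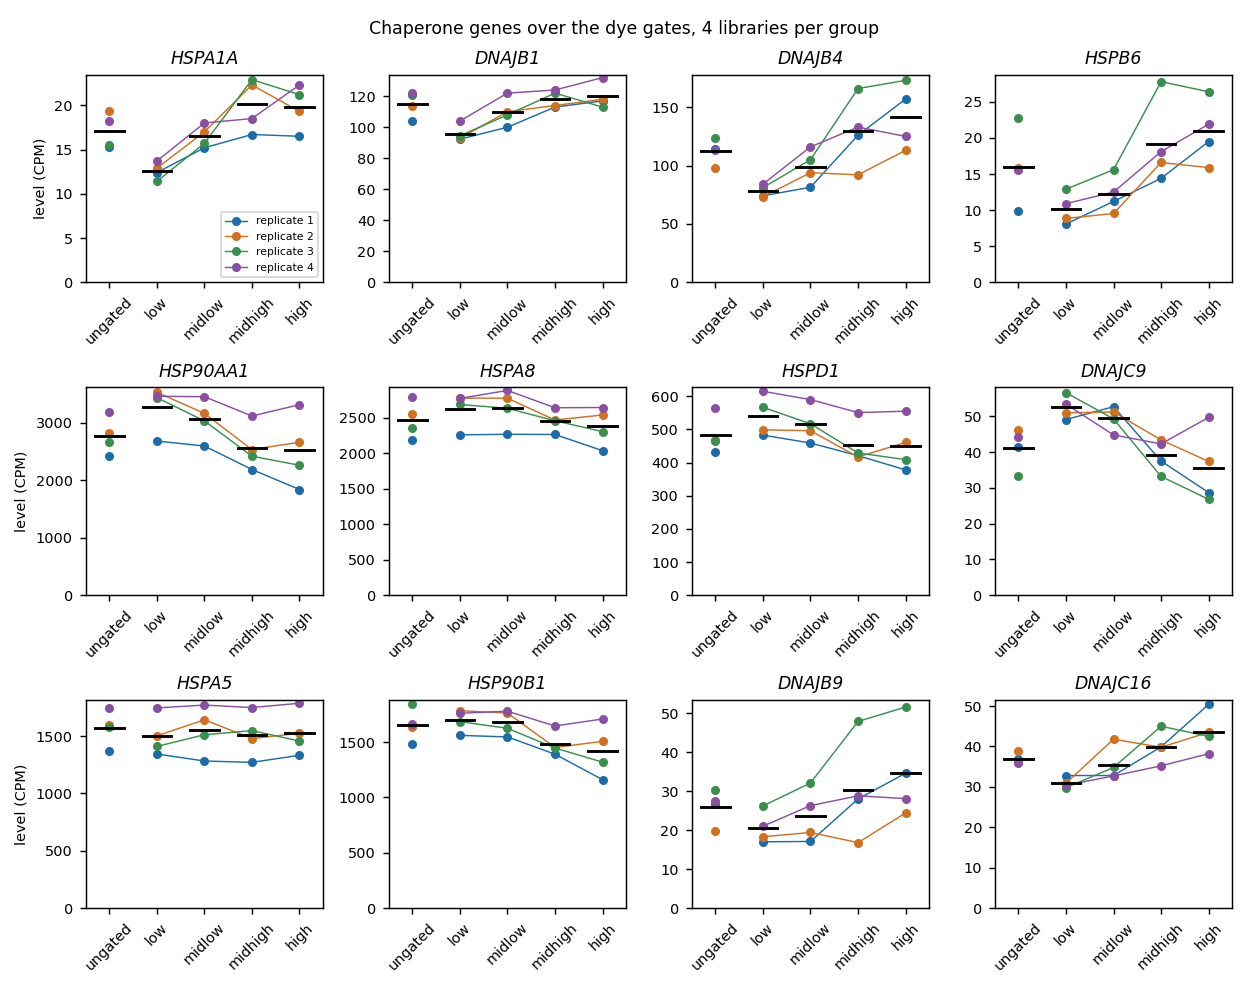
Level in CPM of 12 members in ungated cells and in the low, midlow, midhigh and high dye gates, with 1 point per library, lines joining the gates of 1 replicate number and black bars for group means. HSPA1A, DNAJB1, DNAJB4, HSPB6 and DNAJC16 have their lowest group mean in low dye cells, HSP90AA1, HSPD1, HSP90B1 and DNAJC9 have their highest group mean there, and HSPA5 lies between 1271 and 1787 CPM in all 20 libraries.

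Midhigh against midlow dye compared the 2 inner gates. No member and no gene was called by edgeR (background 0% of 14592). At an unadjusted p under 0.05 edgeR gave 3 members higher and 3 lower, against 935 and 957 of all 14592 genes. DESeq2 called 1 member, HSPA14, lower (adjusted p = 0.0172). With the replicate block 4 members were higher and 5 lower, against a background of 10.8% (5.55% higher, 5.27% lower). The 4 were HSPB6 (log2 0.64 ± 0.11, edgeR adjusted p = 0.00285), HSPB7, HSPB8 and DNAJB4, and the 5 were HSPA14 (log2 -0.39 ± 0.08, edgeR adjusted p = 0.00691), DNAJC8, HSP90AA1, HSPH1 and HSPD1. HSPA14 had 19.2, 14.4, 16.2 and 17.1 CPM in midhigh dye cells, against 20.8, 23, 22.2 and 21.2 CPM in midlow dye cells, without overlap.

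Against cells that were not gated, neither outer gate gave a called member by edgeR without the block. High dye against ungated cells had a background of 0.00685% (1 gene), and DESeq2 called 0 members. At an unadjusted p under 0.05, 6 members were higher and 3 lower, against 733 and 810 of all 14592 genes. Low dye against ungated cells had a background of 0.0754% (11 genes). It had 1 member higher and 6 lower at an unadjusted p under 0.05, against 785 and 1112 of all 14592 genes. There DESeq2 called 1 member, HSPA1A, lower (adjusted p = 0.0497). With the replicate block, low dye cells had 1 member higher (HSP90AA1) and 7 lower than ungated cells, against a background of 10.8% (3.59% higher, 7.2% lower). The 7 were DNAJB1 (log2 -0.26 ± 0.05, edgeR adjusted p = 0.00196), HSPB6, DNAJB4, HSPA1A, DNAJC6, DNAJC16 and HSPB8. High dye cells had 5 members higher with the block (HSPB6, HSPB8, DNAJC6, DNAJB4 and DNAJB2) and 3 lower (HSPA14, HSPA12A and HSP90B1), against a background of 7.59% (3.66% higher, 3.93% lower). Both comparisons share the ungated libraries. HSPA1A had 15.3, 19.4, 15.5 and 18.2 CPM in ungated cells, above all 4 low dye libraries and within the range of the high dye ones except for the 2 lower values.

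The mean of the 4 gates, weighted equally, was set against ungated cells. The share of each gate among ungated cells is not given. An effect of sorting and a different mix of cells therefore cannot be told apart here. No member was called with or without the block by edgeR, nor by DESeq2, and no gene at all was called by edgeR (background 0%). At an unadjusted p under 0.05 there was 1 member higher without the block, HSPBP1 (47.3 ± 2.87 CPM over the gated libraries, 43.2 ± 3.31 CPM in ungated cells), and 3 with it. Of all 14592 genes, 109 were higher and 170 lower at that threshold without the block, and 312 and 660 with it. Log2 fold changes ran from -0.20 (DNAJA4) to 0.20 (HSPBAP1) over the 63 members. Among 18 main members, they ran from -0.08 (HSP90B1) to 0.14 (HSPB1).

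LSD1, the product of KDM1A, is a histone demethylase that acts on histone H3. LSD1 inhibition was set against the DMSO and no drug libraries together, 2 against 2. No member was called by edgeR without a replicate block (background 0.114% of 14002 genes). At an unadjusted p under 0.05, 3 members were higher and 0 lower, against 729 and 221 of all genes. HSPA4L, an exchange factor of the HSP110 group, had 49.9 and 42.4 CPM with LSD1 inhibition, against 24.3 CPM in DMSO and 20.2 CPM in no drug cells. Both inhibitor libraries lay above both controls (log2 1.06 ± 0.15, edgeR adjusted p = 0.0989), and it is named because of these values. DESeq2 called it (adjusted p = 8.74e-05), and it was the only member DESeq2 called. Over all alternatives its adjusted p ran from 1.16e-33 (edgeR with the replicate block) to 0.677 (edgeR with no filter on low counts). The labels state no pairing for these libraries. With 1 of the 4 libraries left out, edgeR gave adjusted p-values from 3.88e-06 to 0.0236. Those fits leave 1 arm with a single library, which is assumed to vary like the other arm, so they add no support to the call. Among 18 main members, log2 fold changes ran from -0.27 (HSPA1B) to 0.15 (HSPB1), the lowest edgeR adjusted p without a replicate block being 0.799. HSP90AA1 had 2483 and 2166 CPM with LSD1 inhibition, against 2816 CPM in DMSO and 2447 CPM in no drug cells. HSPA5 had 1703 and 1371 CPM with LSD1 inhibition, against 1730 and 1460 CPM in the same controls, and each replicate 1 library was the higher.

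DOT1L is a methyltransferase of histone H3. Its inhibition had 1 library, so there is no replicate check and no test. The DOT1L inhibition library was set against DMSO, a library that also serves the LSD1 comparison. Of 63 members at 1 CPM or more in either library, 4 were more than 1.5-fold higher and 0 lower (as a log2 ratio of the CPM, each with 2 counts added beforehand). Of all genes 10.6% were past that fold, 7.96% higher and 2.66% lower. HSPB7 had 66 counts (exact Poisson 95% interval 51 to 84, counting error only) or 3.78 CPM with DOT1L inhibition, against 20 counts (12.2 to 30.9) or 1.24 CPM in DMSO, a log2 ratio of 1.52. In the other libraries of the drug set HSPB7 had 1.61 and 3.75 CPM with LSD1 inhibition and 1.99 CPM with no drug, so 1 LSD1 inhibition library was at the level of the DOT1L inhibition library. DNAJC22 had 11.6 CPM with DOT1L inhibition and 7.07 CPM in DMSO (log2 0.71). DNAJC12, a partner of the aromatic amino acid hydroxylases, had 1.6 CPM with DOT1L inhibition and 0.993 CPM in DMSO (log2 0.63). These are 28 counts (Poisson 95% interval 18.6 to 40.5) and 16 counts (9.15 to 26), so the intervals overlap on counting error alone. DNAJC4 had 10.9 CPM with DOT1L inhibition and 7.07 CPM in DMSO (log2 0.62), and 8.82 CPM in the no drug library. With LSD1 inhibition DNAJC4 had 9.38 and 11.7 CPM, so 1 of those libraries lay above the DOT1L inhibition library. The main cytosolic, ER and mitochondrial chaperones stayed within 1.5-fold, and HSPA1A had 19 CPM with DOT1L inhibition and 18.2 CPM in DMSO. HSPB1 came nearest to that fold among them, with 227 CPM under DOT1L inhibition and 153 CPM in DMSO (log2 0.57). In the no drug library HSPB1 had 220 CPM.

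**Figure D4:**
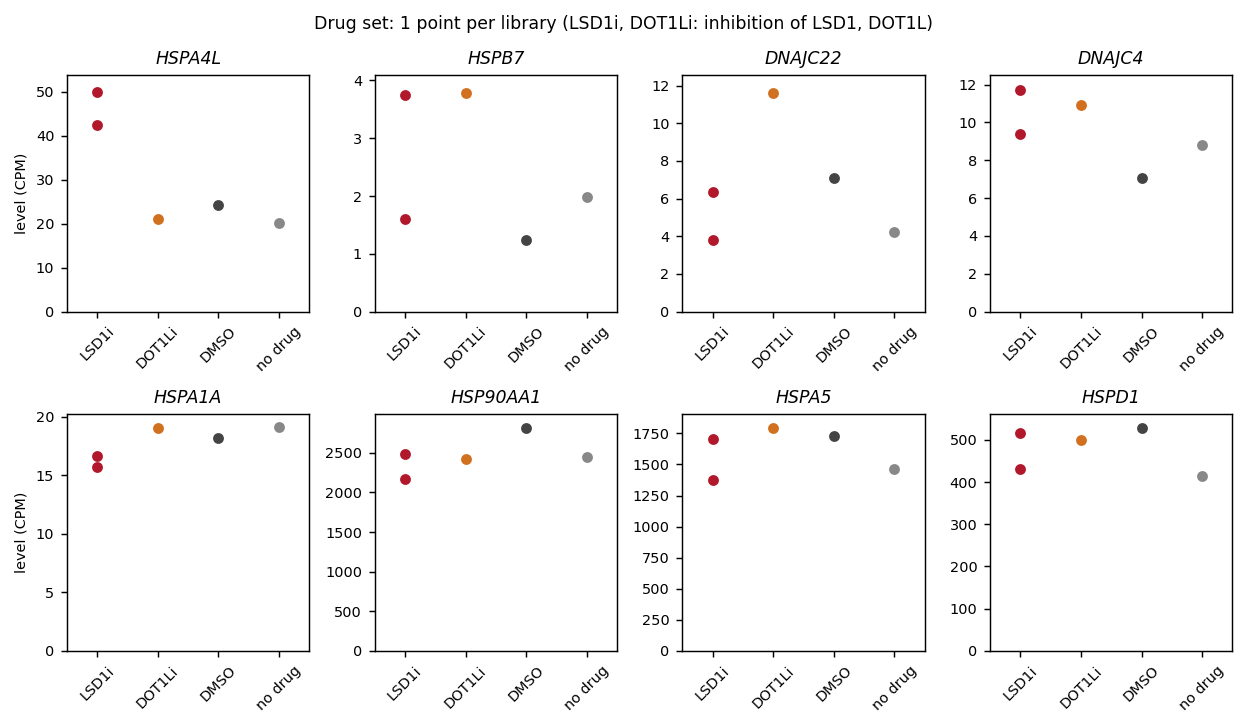
Level in CPM of 8 members in the drug set, with 1 point per library for LSD1 inhibition (2), DOT1L inhibition, DMSO and no drug. HSPA4L is at 49.9 and 42.4 CPM with LSD1 inhibition and at 20.2 to 24.3 CPM elsewhere, and HSPB7 is at 3.78 CPM with DOT1L inhibition and 1.61 and 3.75 CPM with LSD1 inhibition, against 1.24 CPM in DMSO and 1.99 CPM with no drug.

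Set beside the promoter windows printed above, 19 tested members had a paired heat shock unit in a window. Of these 4 rose and 0 fell between high and low dye (8 higher and 4 lower with the block). Of 40 tested members with windows but without the unit, 5 rose and 3 fell (8 higher and 6 lower with the block). The background over all genes was 17.8% without the block and 37.2% with it, and nothing is read from the counts beside it. Members with a paired unit went both ways in the blocked fit. HSPA1A, DNAJB1, DNAJB4 and HSPB6 were among those called higher, with and without the block. HSP90AA1, HSP90AB1, HSPA8 and HSPD1, which hold runs of 3 units, were called lower with the block only. DNAJA1 and DNAJB6 also hold such runs and were called in neither fit (log2 -0.12 ± 0.09 and 0.08 ± 0.13). HSPA6, with a run as well, was not tested. Of the 2 ER genes with an ER stress response element, HSPA5 was not called and HSP90B1 was called lower with the block. Whether the element has a part in either direction was not tested.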

How the data were processed

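Poly(A) RNA of 25 hiF-T libraries was sequenced with a kit that does not record the strand, per the labels' protocols. Per the submitters' processing notes, the authors aligned reads with STAR and assigned them with HTSeq on hg38 (GRCh38). Versions, annotation release and strand setting are not given in the sources used here. The deposited values are whole-number read counts, 1 for each Ensembl identifier in each library, which the authors did not normalise. Ambiguous reads made up 7.14% to 7.62% and reads in no feature 4.33% to 7.72%, and both stayed out of library sizes. Reads of overlapping or near-identical genes can thus be lost or shared.

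Symbols came from the reference gene table, and biotypes, coordinates, overlaps and transcript lengths (principal transcripts) from GENCODE release 29, which may not be the release used for counting. The test was that of edgeR 4.0.16 (R 4.3.3, TMM, filterByExpr with minimum count 10 and total 15, glmQLFit and glmQLFTest), adjusted by Benjamini-Hochberg over all genes tested. The 20 sort libraries shared 1 fit, the trend used the 16 gated libraries, and the drug set had its own fit. CPM were scaled within each set, so levels are not compared across sets. Standard errors are the absolute log2 fold change over the square root of F. DESeq2 1.42.0, other scalings, no filter, left-out libraries and the replicate block were alternatives. Each was changed alone, so fits with a library left out had no block. The fits were tested on simulated data without a replicate effect. That test does not bear on the choice between fits with and without the block.

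Replicate numbers come from the titles. All 40 pairs of sort libraries with 1 number correlated above 0.1 after removal of group means (0.146 to 0.618), against 16 of 120 with different numbers, so blocked values are given. No library of a group copied another (smallest chi-square per degree of freedom 8.22). Members and gene lists were chosen with earlier results of these data known. Named throughout are 18 main members, plus up to 12 called members per comparison at 10 CPM or more in either group and those past 1.5-fold for DOT1L. HSPA4L under LSD1 inhibition, DNAJC4, and the members named as called only by the block or DESeq2 were chosen after their values were seen. Protein sequences were not used here.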

Additional observations from a re-analysis of the deposited data

Results flagged for a closer look

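In 140 groups of 4 libraries (28 members in 5 sort groups), 4 had a library far from the other 3 relative to the group's range. Chance gives such a gap in about 1 in 20 groups. HSP90AA1 stood at 2680 CPM in low dye replicate 1, with a median of 3458 CPM in the other low dye libraries. DNAJA1 stood at 305 CPM in midlow dye replicate 1, with a median of 365 CPM in the others. HSPA9 stood at 520 CPM in ungated replicate 1 (median of the others 435 CPM), and HSPD1 at 551 CPM in midhigh dye replicate 4 (median of the others 421 CPM). Of these libraries 3 carry replicate number 1. HSP90AA1 was lowest in replicate 1 in all 5 sort groups, and HSPA9 was highest there in 4 of the 5, midhigh dye being the exception.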

How the results depend on the processing

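The main counts of called members were 13 for high against low dye, 20 for the trend over the gates, 0 for midhigh against midlow dye, for either outer gate against ungated cells and for LSD1 inhibition, and 4 past 1.5-fold for DOT1L inhibition. With the replicate block, the counts were 28, 35, 9, 8 (high dye against ungated), 8 (low dye against ungated) and 10 (LSD1 inhibition). Those 10 were 6 higher and 4 lower, HSPA4L, HSP90AA1, HSPA1B and HSPB1 among them, against a background of 16%. The labels state no pairing for the drug set, and its same-number correlation (0.557) is a single free value from 2 pairs. The block changed no count for gated against ungated cells. Fitting only the 2 compared groups left 7 members called between high and low dye. DESeq2 called 1 member for midhigh against midlow dye, 1 for low dye against ungated cells and 1 for LSD1 inhibition, and the fit without a filter called 1 for low dye against ungated cells. A CPM minimum of 10 left 2 members for DOT1L inhibition, and scaling by library totals only gave 5. Leaving out single libraries gave 7 to 19 members for high against low dye, 13 to 23 for the trend, and 1 to 2 for LSD1 inhibition. The cause of these shifts was not tested. Over named members, 2120 values kept direction and side of the threshold, 48 passed it, 57 lost it, 102 moved without a call at stake, and 0 reversed. Levels under about 0.2 CPM cannot be told from 0, and 2 or 1 libraries per drug group limit that set.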
